A study of Mus musculus with 18 samples.

Results

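The transcription factor p53 and 30 of its pathway genes were followed across the mouse ovarian cancer lines HM-1 and ID8 and HM-1 tumors. The list held 31 of the 54752 genes of the count table. It was made of Trp53, which encodes p53, its inhibitors Mdm2 and Mdm4, and listed p53 targets together with Cdkn2a, matched by mouse symbol to their Ensembl rows, and all 31 were found. By role, 4 members were p53 and its regulators, 7 acted in cell cycle arrest and growth, 9 in intrinsic apoptosis, 3 were death receptors, 5 served DNA repair and nucleotide supply and 3 metabolism and autophagy.

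In unstressed cells p53 is kept low by the ubiquitin ligase Mdm2 and its relative Mdm4, and damage or oncogenic stress frees it from them. The p19Arf product of Cdkn2a binds Mdm2 and so protects p53. Freed p53 binds DNA elements near its targets and raises their transcription, among them Cdkn1a, whose product p21 halts the cell cycle, the apoptosis genes Bbc3, Pmaip1 and Bax, and Mdm2 itself, which closes a feedback loop. In human ovarian cancer of the high-grade serous type the p53 gene is nearly always mutated. The labels do not state the p53 status of either mouse line.

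There were 18 RNA-seq libraries, 3 in each of 6 groups. The groups were HM-1 tumors labelled Cd276KO and control HM-1 tumors, ID8 cells labelled Cd276KO and control ID8 cells, and HM-1 cells labelled Cd276KO and control HM-1 cells. Cd276 encodes the immune checkpoint protein B7-H3. HM-1 samples carry the strain label B6C3F1, ID8 samples carry the label C57BL6, and the lines were cultured in MEM alpha (HM-1) or an RPMI medium (ID8), each with foetal bovine serum, penicillin and streptomycin, so line, strain and medium cannot be told apart. Tumors grew in the skin of B6C3F1 mice from 1000000 HM-1 cells and were taken on day 10, with no age or sex of the mice given. The labels call the replicates biological, without telling whether those of a group are separate clones, dishes or animals. The control HM-1 cultures and the control tumors each enter several comparisons, which therefore share libraries. The p-values therefore cover the spread among 3 libraries, part of which may be technical.

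Total counts were 17349082 to 30959773 per library. In HM-1 cells Cd276 had 47.2, 47.7 and 44.8 counts per 1000000 of the library total (CPM) in the libraries labelled Cd276KO, against 74.2, 93.5 and 91.5 CPM in controls (log2 fold change -0.85 ± 0.10 SE, adjusted p = 0.00146, edgeR). In ID8 cells it had 18.3, 18.8 and 21.01 CPM in the libraries labelled Cd276KO and 21.1, 21.1 and 20.6 CPM in controls (-0.04 ± 0.08 SE, adjusted p = 0.692), so the Cd276 RNA level gave no sign of the label in ID8. In tumors it had 73.2, 97.2 and 89.5 CPM in those labelled Cd276KO and 142, 107 and 116 CPM in controls (-0.45 ± 0.14 SE, adjusted p = 0.105). Control HM-1 culture 1 and control tumor 3 stood apart from their groups, with a chi-square per gene of 63.9 to 64.95 against the other control cultures, which differed from each other by 1.57, and of 81.3 to 134 against the other control tumors, which differed by 41.1. Of the epithelial markers Epcam had no count in HM-1 cells, while the summed level of the 6 markers was 5167 to 6314 CPM there.

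The promoters were read for the p53 consensus decamer, of which a full response element holds a pair with at most 13 bases between them. Of the 31 members 24 had a RefSeq promoter window (GRCm38.p6, 250 bases before to 50 after a transcript start), with 37 windows in all. A perfect decamer, which reads as the same consensus on both strands, was in 11 of these windows (29.7%), against 8.36% of all 32851 windows of the table. By symbol it was in 10 of 24 members (41.7%), against 9.55% of all 27025 symbols. Cdkn1a was the member with a perfect pair, which 24 of all windows held (0.0731%). Its window at chr17:29093519-29093818 held no decamer. The window with the pair, at chr17:29090729-29091028 on the plus strand, is shown whole because Cdkn1a is the best known target and was lower in both lines labelled Cd276KO. The capitals mark the decamers, which start 73 and 51 bases before the transcript start with 12 bases between them, and the 10 bases after the second match the consensus at 9 positions.
Cdkn1a: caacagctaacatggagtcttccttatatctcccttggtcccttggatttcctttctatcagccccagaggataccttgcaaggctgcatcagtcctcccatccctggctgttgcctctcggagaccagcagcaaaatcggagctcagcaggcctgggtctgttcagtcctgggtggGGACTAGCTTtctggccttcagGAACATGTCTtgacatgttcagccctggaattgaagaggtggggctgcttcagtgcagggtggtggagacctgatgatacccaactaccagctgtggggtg

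Single decamers are shown for members whose change with the label differed between the lines in the interaction test given further on, in capitals with 10 bases on each side. Those of Mdm2 (chr10:117710925-117710954, minus strand), Ccng1 (chr11:40755452-40755481, minus strand), Bax (chr7:45467080-45467109, minus strand), Polk (chr13:96519399-96519428, minus strand) and Trp53 (chr11:69580274-69580303, plus strand) lay before a transcript start. For Polk this is an inner start, as the gene spans chr13:96480690-96542579. The Polk window at the outer start (chr13:96542530-96542829) held no decamer. Rps27l had a pair in the same window too far apart to form 1 element, at chr9:66946193-66946222 and chr9:66946296-66946325 on the plus strand. Of the members that differed, Plk2, Fas, Bbc3, Fdxr, Steap3 and Mdm4 had windows without a decamer, and Tnfrsf10b, Zmat3 and Ddb2 had no window. Aen, Ei24 and Sesn1 had a decamer and were not called in that test. A match describes these letters and does not show that p53 binds there.
Mdm2: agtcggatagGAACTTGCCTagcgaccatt
Ccng1: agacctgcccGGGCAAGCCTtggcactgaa
Bax: agcatatcccAGGCAAGCTTtgaacttgcg
Polk: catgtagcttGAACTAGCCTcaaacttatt
Trp53: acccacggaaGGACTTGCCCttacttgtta
Rps27l, first: ctttgggctcGGGCTTGCTTtccttcaggc
Rps27l, second: gggcttgttgAGACTTGTCCgggcgacacg

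Levels of different members were compared per length, as transcripts per 1000000 (TPM). Rps27l, which encodes a paralogue of ribosomal protein S27, was the highest member in all 6 groups, with 358 to 708 TPM as group means. Its count may be off where reads are shared with its paralogue. In control ID8 cells Ccng1 (330 ± 37.9 TPM, SD, n = 3), which encodes cyclin G1, Phlda3 (241 ± 13.5 TPM), an inhibitor of Akt, Bax (219 ± 12.4 TPM) and Trp53 (186 ± 7.88 TPM) followed. In control HM-1 cells the next were Ccng1 (347 ± 55.2 TPM), Bax (320 ± 30.8 TPM), Cdkn1a (235 ± 7.53 TPM), Phlda3 (230 ± 20.0 TPM) and Trp53 (193 ± 8.06 TPM). In HM-1 controls neither Ccng1 and Bax nor Cdkn1a and Phlda3 were further apart than their spread. The Trp53 transcript itself was thus among the 6 highest members in both lines. Its gene lies at chr11:69580359-69591873 on the plus strand (ENSMUSG00000059552.13).

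The first question was how the control lines differ at baseline. Calls throughout are adjusted p-values under 0.05 from the quasi-likelihood test of edgeR, adjusted by Benjamini-Hochberg over every gene tested, and 58.3% of all genes were called between ID8 and HM-1 control cells. Of the 30 members tested, 21 were called, 9 higher and 12 lower in ID8, against 28.8% higher and 29.6% lower among all genes. Trp53 had 220, 233 and 233 CPM in ID8 and 257, 242 and 243 CPM in HM-1 control cells (-0.15 ± 0.08, adjusted p = 0.155), so a difference in the p53 transcript did not pass the test. Mdm2, at chr10:117688875-117710758 on the minus strand (ENSMUSG00000020184.15), fell to 146, 148 and 132 CPM in ID8, against 235, 286 and 282 CPM in HM-1 (-0.96 ± 0.10, adjusted p = 7.06e-05). Every ID8 library was below every HM-1 library. Mdm4, at chr1:132959484-133030561 on the minus strand (ENSMUSG00000054387.13), had 84.9, 91.7 and 71.1 CPM in ID8 and 52.4, 73.6 and 70.0 CPM in HM-1 (0.30 ± 0.14, adjusted p = 0.110), with overlapping groups.

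Cdkn2a had no count in any of the 12 culture libraries of either line, which allows at most 0.0354 CPM in control ID8 cells and 0.0450 CPM in control HM-1 cells at 3 counts over a group, counting error only. The gene lies at chr4:89274471-89294653 on the minus strand (ENSMUSG00000044303.6) and encodes both p16Ink4a and p19Arf, which gene counts do not tell apart. Whether the gene is deleted was not tested. Of the intrinsic apoptosis genes Pmaip1, which encodes the BH3-only protein Noxa, had 5.24, 6.17 and 3.84 CPM in control ID8 cells and no count in any HM-1 culture. With 436 counts against 0, this is at least 114.3-fold higher in ID8, taking 3 counts over the HM-1 group as the floor.

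Bbc3, which encodes the BH3-only protein Puma, was also higher in ID8, with 14.8, 13.2 and 13.8 CPM, against 7.43, 4.97 and 6.46 CPM in HM-1 (1.11 ± 0.16, adjusted p = 0.000571). The pore-forming effector Bax was lower, and 6 of the 9 apoptosis genes were called, 3 in each direction. Among them the calls of Aen (lower) and Pidd1 (higher) were lost without 1 library or another. The adjusted p was then 0.101 to 0.133 for Aen and 0.0523 to 0.0653 for Pidd1. That of Aen was also lost without a filter (0.177) and in the fit over all 18 libraries (0.182). The death receptors were also called in both directions. Fas, the receptor of Fas ligand, had 17.99, 15.1 and 15.4 CPM in ID8 and 2.50, 1.81 and 2.03 CPM in HM-1 (2.91 ± 0.16, adjusted p = 1.93e-06). Tnfrsf10b, the TRAIL receptor of the mouse, had 23.3, 23.2 and 25.6 CPM in ID8 and 99.7, 122 and 116 CPM in HM-1 (-2.27 ± 0.11, adjusted p = 7.09e-07). The lines did not overlap in either receptor, and their directions were opposite. Eda2r, the receptor of ectodysplasin A2, was higher in ID8, with 44.2, 47.1 and 40.8 CPM, against 18.9, 28.6 and 30.04 CPM in HM-1 (0.73 ± 0.16, adjusted p = 0.00543).

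Of the 7 cell cycle and growth genes 2 were higher and 3 lower in ID8. The call of Btg2, among the lower, was lost without 1 library or another (adjusted p = 0.108 to 0.139) and without a filter (0.282). Cdkn1a, at chr17:29090976-29100727 on the plus strand (ENSMUSG00000023067.14), fell to 81.1, 82.9 and 85.5 CPM in ID8, against 283, 250 and 262 CPM in HM-1 (-1.71 ± 0.09, adjusted p = 1.73e-06). The growth factor Gdf15 fell to 1.38, 0.969 and 0.988 CPM in ID8, against 10.7, 8.95 and 10.48 CPM in HM-1 (-3.21 ± 0.18, adjusted p = 2.23e-06). Sesn1, a sestrin that restrains mTORC1, had 25.8, 25.8 and 25.9 CPM in ID8 and 6.35, 10.1 and 8.83 CPM in HM-1 (1.57 ± 0.15, adjusted p = 5.48e-05). In none of Cdkn1a, Gdf15 and Sesn1 did the lines overlap.

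Among the metabolic members Steap3, an iron reductase linked to exosome release, had 0.765, 0.517 and 0.798 CPM in ID8 and 29.5, 31.6 and 31.01 CPM in HM-1 (-5.51 ± 0.16, adjusted p = 7.14e-08). It was the member with the largest fold below HM-1. Dram1, a lysosomal protein of autophagy, had 1.42, 2.03 and 1.44 CPM in ID8 and 0.340, 0.158 and 0.211 CPM in HM-1 (2.79 ± 0.33, adjusted p = 0.000182). It passed the filter on low counts through ID8, and its HM-1 side rests on 15 counts over the controls. Of the 5 repair genes 3 were lower in ID8, the damage sensors Ddb2 and Xpc together with Rps27l, by 0.39 to 0.50 on the log2 scale. Those calls were lost without 1 library or another, with adjusted p of 0.0501 for Ddb2, 0.0551 to 0.0934 for Xpc and 0.0968 to 0.125 for Rps27l. Without control HM-1 culture 1 the call count was 25, 9 higher and 16 lower, with 75.3% of all genes called, and the calls of all members given here with values were kept.

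**Figure D1:**
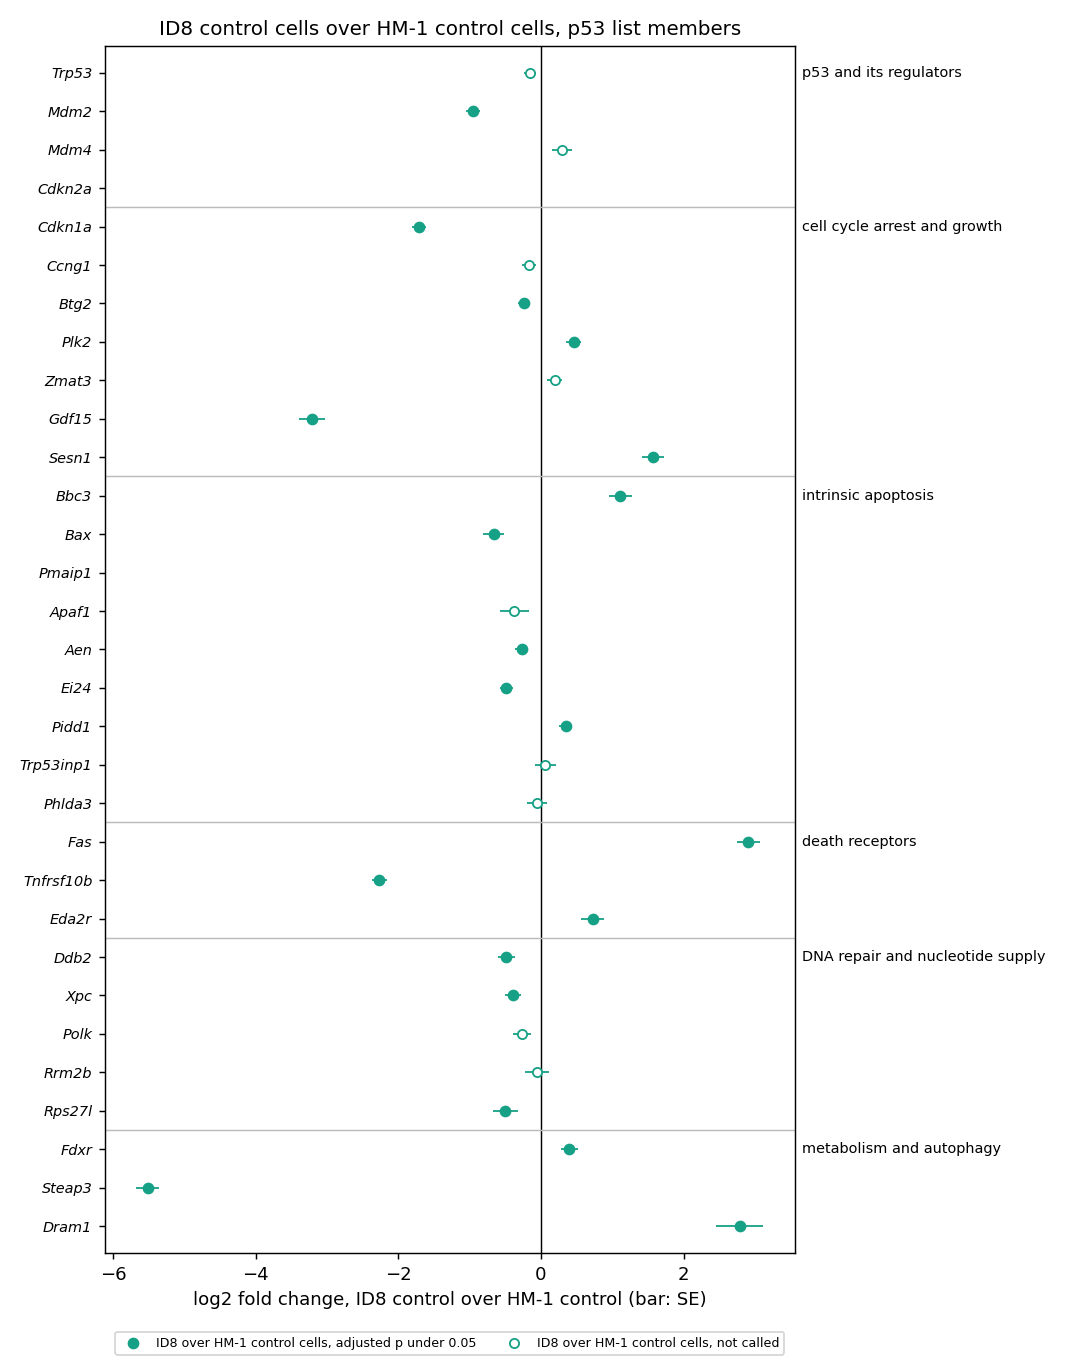
Log2 fold change of each tested p53 list member in control ID8 cells over control HM-1 cells, grouped by role (x axis, bars SE, n = 3 libraries each, filled points adjusted p under 0.05). Steap3 (-5.51) and Gdf15 (-3.21) lie farthest left and Fas (2.91) and Dram1 (2.79) farthest right, Pmaip1 is not drawn because HM-1 had no count, and Cdkn2a was not tested. Dram1 rests on 15 counts over the HM-1 controls.

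In HM-1 cells labelled Cd276KO 10 of the 28 members tested were called and 18 were not. The called members were 9 lower, Mdm2, Zmat3, Plk2, Tnfrsf10b, Trp53inp1, Cdkn1a, Ddb2, Btg2 and Ccng1, and 1 higher, Gdf15. Among all 12457 genes tested, 27.7% were called, 16.1% lower and 11.6% higher, against 32.1% lower and 3.57% higher among the members. The median log2 fold change was -0.31 over the members and -0.01 over all genes. Cdkn2a, Pmaip1 and Dram1 did not pass the filter on low counts and were not tested, with 9 counts of Dram1 in the cells labelled Cd276KO and 15 in controls.

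Mdm2 fell to 152, 145 and 150 CPM in HM-1 cells labelled Cd276KO, against 235, 286 and 282 CPM in controls (-0.80 ± 0.09, adjusted p = 0.00116). Cdkn1a fell to 184, 184 and 173 CPM, against 283, 250 and 262 CPM in controls (-0.52 ± 0.08, adjusted p = 0.00475). The groups did not overlap in either gene. Trp53 had 198, 215 and 191 CPM in cells labelled Cd276KO and 257, 242 and 243 CPM in controls, again without overlap, but missed the threshold (-0.26 ± 0.08, adjusted p = 0.0514). Trp53 passed in 5 of 13 alternative fits, among them that without control culture 1, at -0.22 ± 0.04 with an adjusted p of 1.79e-05. The others were DESeq2 (0.0269), upper-quartile scaling (0.0436), the fit over all 18 libraries (0.0175) and limma voom with quality weights (0.000144). Mdm4 had 84.0, 72.3 and 76.6 CPM in cells labelled Cd276KO and 52.4, 73.6 and 70.0 CPM in controls, with overlap (0.29 ± 0.13, adjusted p = 0.148, and 0.17 ± 0.05, adjusted p = 0.00486, without control culture 1).

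Of the 7 arrest and growth genes 6 were called, 5 of them lower. Zmat3, a zinc finger RNA-binding protein, fell to 55.9, 54.6 and 49.8 CPM in cells labelled Cd276KO, against 78.8, 102 and 99.4 CPM in controls (-0.77 ± 0.11, adjusted p = 0.00345). Plk2, a polo-like kinase, fell to 74.1, 60.5 and 65.2 CPM, against 99.5, 116 and 122 CPM in controls (-0.71 ± 0.11, adjusted p = 0.00411). Neither gene's groups overlapped. Btg2, an antiproliferative cofactor, and Ccng1 fell by 0.38 and 0.37 on the log2 scale. Gdf15 went the other way, with 14.7, 13.7 and 11.96 CPM in cells labelled Cd276KO and 10.7, 8.95 and 10.48 CPM in controls (0.46 ± 0.12, adjusted p = 0.0298).

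Tnfrsf10b fell to 72.5, 67.8 and 66.8 CPM in HM-1 cells labelled Cd276KO, against 99.7, 122 and 116 CPM in controls (-0.66 ± 0.09, adjusted p = 0.00278). Trp53inp1, a stress protein of apoptosis and autophagy, fell to 39.5, 38.0 and 36.6 CPM, against 46.0, 62.0 and 64.3 CPM in controls (-0.55 ± 0.13, adjusted p = 0.0197). Both genes were lower in 3 of 3 libraries. Trp53inp1 was the called member of the 8 apoptosis genes tested, and Bbc3 had 3.44, 4.15 and 4.43 CPM in cells labelled Cd276KO and 7.43, 4.97 and 6.46 CPM in controls without passing (-0.60 ± 0.19, adjusted p = 0.0560). Ddb2 was the called repair gene, and its exons overlap those of Acp2 on the opposite strand, whose reads cannot be told apart without a stated strand setting.

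Control culture 1 differed from the other control cultures within the list too, for example in Rps27l, with 227 CPM there and 153 and 154 CPM in the others, and in Apaf1, with 34.2 CPM there and 61.7 and 61.0 CPM in the others. Without it 19 members were called, 17 lower and 2 higher, with 59.1% of all genes called, and Mdm2 (-0.88), Zmat3 (-0.86), Plk2 (-0.78), Tnfrsf10b (-0.73), Trp53inp1 (-0.68) and Cdkn1a (-0.45) kept their calls. Leaving out control culture 2 or 3 gave 7 or 6 calls, with 20.6% or 21.1% of all genes called. Leaving out culture 1, 2 or 3 labelled Cd276KO gave 5, 6 or 5, with 13.8%, 14.3% or 13.5% of all genes called. In each of those 5 fits the calls of Gdf15 (adjusted p = 0.0516 to 0.117), Trp53inp1 (0.0565 to 0.0883), Ccng1 (0.0567 to 0.0952) and Ddb2 (0.0901 to 0.138) were lost. Btg2 lost its call without culture 1 or 3 labelled Cd276KO (adjusted p = 0.0617 and 0.0646). Mdm2, Cdkn1a, Zmat3, Plk2 and Tnfrsf10b were called in all 6 fits that left out 1 library.

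**Figure D2:**
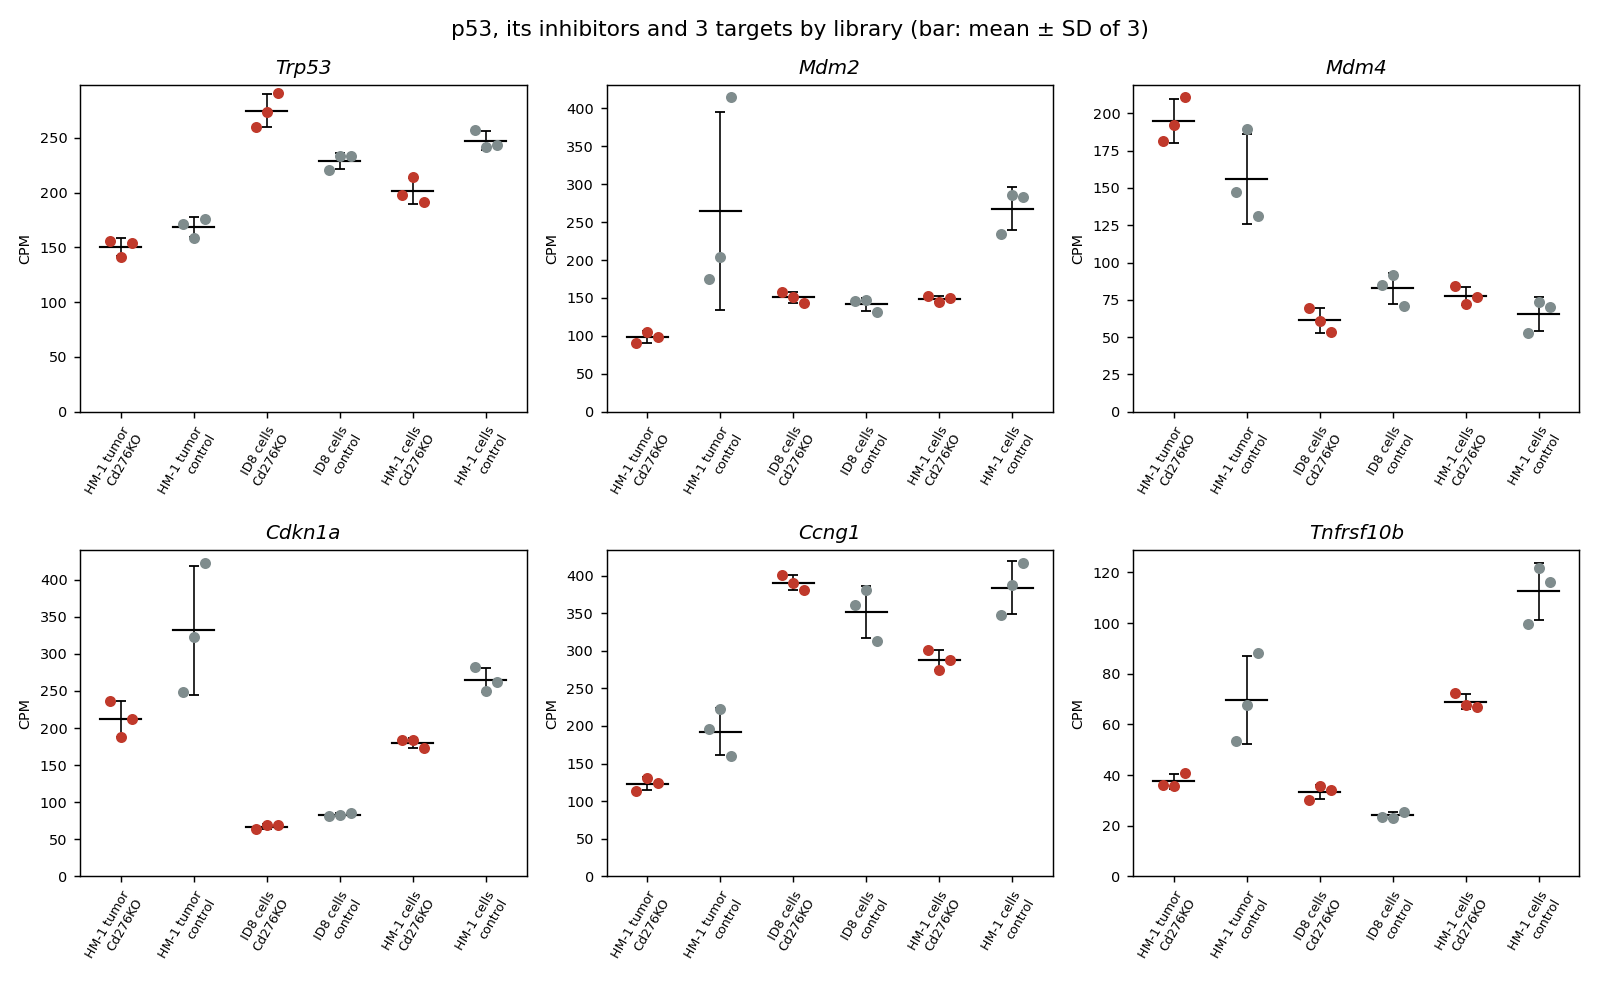
CPM of Trp53, Mdm2, Mdm4, Cdkn1a, Ccng1 and Tnfrsf10b in each library of the 6 groups (points), with the mean and SD of 3 libraries (bars). Mdm2 in HM-1 cells labelled Cd276KO lies between 145 and 152 CPM, below all 3 control cultures, and control tumor 3 stands out with 415 CPM.

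**Figure D3:**
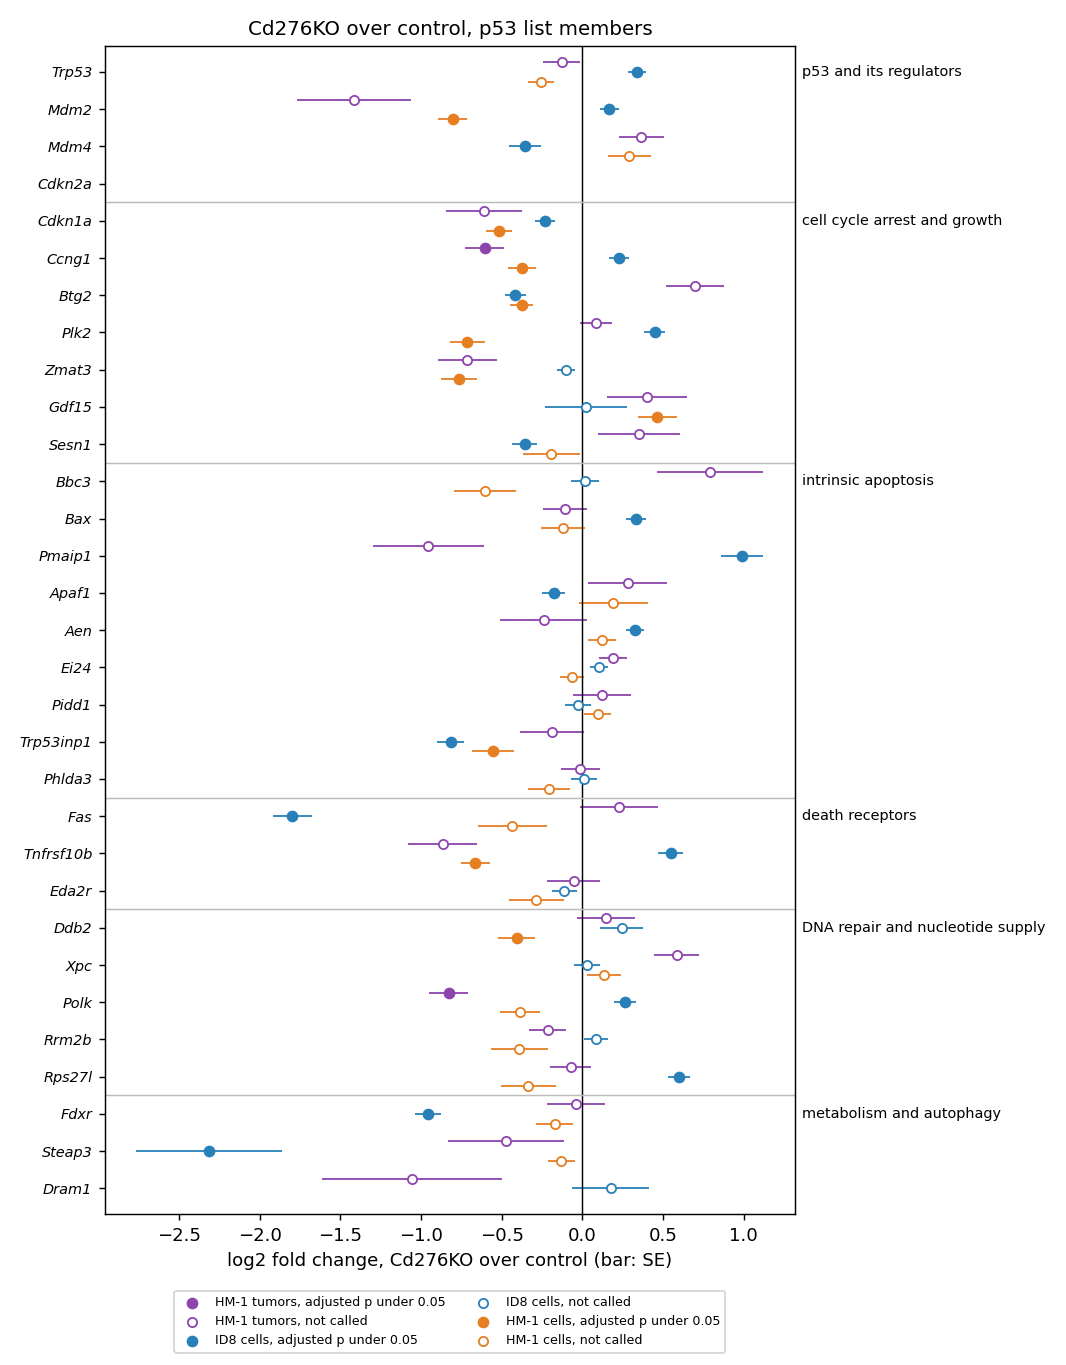
Log2 fold change of samples labelled Cd276KO over controls for each tested p53 list member in HM-1 tumors, ID8 cells and HM-1 cells, grouped by role (x axis, bars SE, filled points adjusted p under 0.05). Mdm2, Plk2, Tnfrsf10b and Ccng1 lie left of 0 in HM-1 cells and right of 0 in ID8 cells.

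In ID8 cells labelled Cd276KO, whose Cd276 RNA did not follow the label, the list split. Of 30 members tested 10 were higher and 9 lower, 63.3% in all, against 60.7% of all 12932 genes tested, 29.4% higher and 31.3% lower. The share called among the members was thus near that of all genes, and the median log2 fold change was 0.03. Trp53 rose to 260, 274 and 291 CPM in libraries labelled Cd276KO, against 220, 233 and 233 CPM in controls (0.34 ± 0.06, adjusted p = 2.56e-05). Mdm2 had 158, 151 and 144 CPM in ID8 libraries labelled Cd276KO, against 146, 148 and 132 CPM in controls, a small increase with overlapping groups (0.17 ± 0.06, adjusted p = 0.0174). Its call was lost without control 3 (adjusted p = 0.0548) and without the library 1 or 2 labelled Cd276KO (0.0789 and 0.0553), and in the fit over all 18 libraries (0.593).

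Mdm4 fell to 69.7, 60.5 and 53.4 CPM in ID8 libraries labelled Cd276KO, against 84.9, 91.7 and 71.1 CPM in controls (-0.36 ± 0.10, adjusted p = 0.00979). Cdkn1a fell to 63.6, 69.2 and 68.9 CPM, against 81.1, 82.9 and 85.5 CPM in controls (-0.23 ± 0.06, adjusted p = 0.00197). Neither gene's groups overlapped. The arrest gene Plk2 rose to 214, 208 and 195 CPM, against 170, 164 and 142 CPM in controls (0.45 ± 0.06, adjusted p = 2.08e-06), while Btg2 fell to 30.6, 29.3 and 30.04 CPM, against 43.1, 43.5 and 39.6 CPM in controls (-0.41 ± 0.07, adjusted p = 1.25e-05). Sesn1 fell to 20.7, 18.2 and 18.5 CPM, against 25.8, 25.8 and 25.9 CPM in controls (-0.36 ± 0.08, adjusted p = 0.000300). All 3 genes were separated by group, so 2 of the 7 arrest and growth genes, Plk2 and Ccng1, were higher and 3, Cdkn1a, Btg2 and Sesn1, were lower. In the fit over all 18 libraries, with 34.0% of all genes called, the calls of Mdm4 (adjusted p = 0.0668), Cdkn1a (0.202), Sesn1 (0.173) and Ccng1 (0.116) were lost.

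Among the apoptosis genes Pmaip1 had the largest increase, to 9.37, 9.47 and 10.1 CPM in ID8 libraries labelled Cd276KO, against 5.24, 6.17 and 3.84 CPM in controls (0.99 ± 0.13, adjusted p = 1.09e-06). Bax and the nuclease gene Aen rose by 0.33 each on the log2 scale. Trp53inp1 fell to 34.3, 32.9 and 32.5 CPM, against 66.0, 67.6 and 51.4 CPM in controls (-0.82 ± 0.08, adjusted p = 4.19e-08), and Apaf1, the core of the apoptosome, fell by 0.18. The calls of Aen (adjusted p = 0.205) and Apaf1 (0.566) were lost in the fit over all 18 libraries, and that of Apaf1 also without any 1 of 4 libraries (0.0570 to 0.167). The death receptors moved in opposite directions. Fas fell to 4.59, 5.06 and 3.47 CPM, against 17.99, 15.1 and 15.4 CPM in controls (-1.80 ± 0.12, adjusted p = 1.86e-11), and Tnfrsf10b rose to 30.2, 35.8 and 33.9 CPM, against 23.3, 23.2 and 25.6 CPM in controls (0.55 ± 0.08, adjusted p = 2.58e-06). Both were separated in 3 of 3 libraries.

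Rps27l rose to 211, 176 and 174 CPM in ID8 libraries labelled Cd276KO, against 132, 125 and 133 CPM in controls (0.60 ± 0.07, adjusted p = 1.46e-07). Polk, a translesion DNA polymerase, rose by 0.26 on the log2 scale (adjusted p = 0.0710 in the fit over all 18 libraries), and the other 3 repair genes were not called. Fdxr, the mitochondrial ferredoxin reductase, fell to 16.7, 14.4 and 15.8 CPM, against 32.0, 30.5 and 33.4 CPM in controls (-0.96 ± 0.08, adjusted p = 4.09e-10). Steap3 was low, at 0.112, 0.107 and 0.169 CPM in libraries labelled Cd276KO and 0.765, 0.517 and 0.798 CPM in controls, with 10 counts over the libraries labelled Cd276KO and 58 over controls, a ratio of 5.37 in favour of controls (95% interval 2.72 to 11.8, exact, counting error only), and it was called lower (adjusted p = 0.000122). Both metabolic genes were thus lower, and Dram1 was not called.

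**Figure D4:**
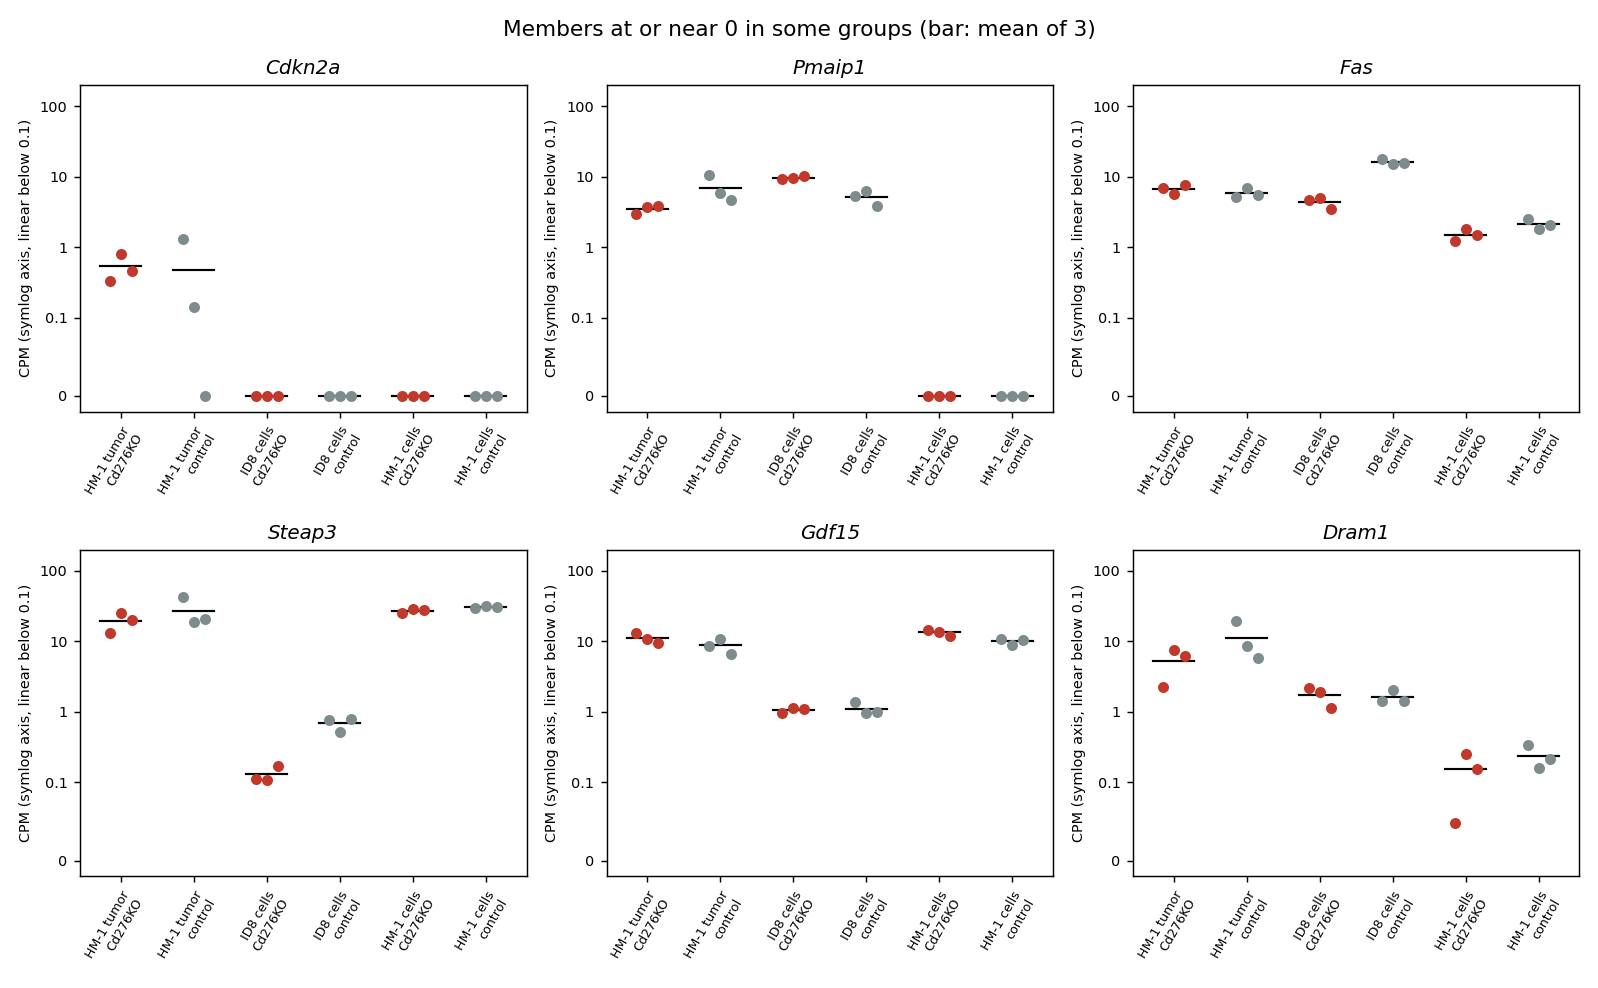
CPM of Cdkn2a, Pmaip1, Fas, Steap3, Gdf15 and Dram1 in each library of the 6 groups on an axis that is logarithmic above 0.1 CPM and linear below it (points), with group means (bars). Pmaip1 is at 0 in all HM-1 cultures and Cdkn2a in all cultures of both lines, while Steap3 lies below 1 CPM in ID8 and at 25.1 to 31.6 CPM in HM-1 cultures.

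The effects in the lines were then set against each other by an interaction term over the 12 culture libraries, as the effect in ID8 minus the effect in HM-1 cells. Of 30 members tested 16 differed, 12 with a higher and 4 with a lower value in ID8, against 40.4% of all 14208 genes tested, 19.8% higher and 20.7% lower. Of the 9 members lower in HM-1 cells labelled Cd276KO, 4 were higher in ID8 (Mdm2, Plk2, Tnfrsf10b and Ccng1), 3 were lower (Cdkn1a, Btg2 and Trp53inp1) and 2 were not called (Ddb2 and Zmat3). The difference was 1.199 ± 0.13 for Tnfrsf10b (adjusted p = 1.12e-05), 1.15 ± 0.13 for Plk2 (adjusted p = 2.21e-05) and 0.96 ± 0.11 for Mdm2 (adjusted p = 2.08e-05). For Trp53 it was 0.59 ± 0.10 (adjusted p = 0.000425), and for Rps27l 0.92 ± 0.19 (adjusted p = 0.00209). The p53 transcript, the Mdm2 feedback transcript and the TRAIL receptor transcript thus differed between the lines in how they moved with the label.

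The members with a lower value in ID8 were Steap3 (-2.19 ± 0.32, adjusted p = 0.000160), Fas (-1.38 ± 0.27, adjusted p = 0.00130), Fdxr (-0.80 ± 0.14, adjusted p = 0.000633) and Mdm4 (-0.65 ± 0.19, adjusted p = 0.0129). The ID8 side of Steap3 rests on few counts, 10 with the label and 58 in controls. Its mean passed the level filter through the HM-1 cultures. Btg2 was lower with the label in both lines, with a difference of -0.05 ± 0.09 (adjusted p = 0.718, 95% interval -0.23 to 0.13). Trp53inp1 was also lower in both, with a difference of -0.27 ± 0.17 (adjusted p = 0.222, 95% interval -0.60 to 0.06). For Cdkn1a the difference of 0.27 ± 0.10 passed by little (adjusted p = 0.0437), with both lines below their controls. That call was lost without control HM-1 culture 3, without any 1 HM-1 culture labelled Cd276KO, without control ID8 library 1 or 2, and without ID8 library 2 or 3 labelled Cd276KO (adjusted p = 0.0548 to 0.111). It was also lost in the fit over all 18 libraries (0.274), without a filter (0.219) and with a replicate block (0.0670). Without control HM-1 culture 1, 19 members differed, 15 higher and 4 lower, with 49.0% of all genes called.

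In HM-1 tumors the question was whether the culture differences recur in tissue. Tumors are bulk samples with host cells, in which fewer cells of a type and less RNA per cell cannot be told apart. In tumors labelled Cd276KO Polk and Ccng1 were lower and no member was called higher, of 30 tested, 6.67% against 5.39% of all 15345 genes, 3.19% lower and 2.2% higher. At an unadjusted p under 0.05 edgeR gave 7 lower and 4 higher, against 13.6% lower and 11.4% higher among all genes. DESeq2 called 5 lower and 2 higher after adjustment, with 16.1% of all genes called. Polk fell to 21.1, 26.5 and 24.8 CPM in tumors labelled Cd276KO, against 41.0, 47.7 and 43.0 CPM in controls (-0.83 ± 0.12, adjusted p = 0.0257). Ccng1 fell to 114, 131 and 124 CPM, against 196, 223 and 160 CPM in controls (-0.60 ± 0.12, adjusted p = 0.0415). Neither gene's groups overlapped. Both calls were lost without control tumor 2 (adjusted p = 0.0562 for Polk and 0.0751 for Ccng1) or without any 1 tumor labelled Cd276KO (0.0877 to 0.154 for Polk and 0.133 to 0.211 for Ccng1), and that of Ccng1 also without control tumor 1 (0.0797). Without control tumor 3 both held, and 6 members were called, 5 lower and 1 higher, with 10.7% of all genes called.

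Mdm2 had 90.2, 106 and 98.4 CPM in tumors labelled Cd276KO and 175, 204 and 415 CPM in controls, without overlap (-1.42 ± 0.35, adjusted p = 0.0657). It passed in 4 of 13 alternative fits, among them that without control tumor 3, which held its highest value (-0.88 ± 0.10, adjusted p = 0.00645). The others were DESeq2 (0.000790), limma voom with quality weights (0.00478) and the fit over all 18 libraries (0.000459). Cdkn1a had 236, 187 and 212 CPM in tumors labelled Cd276KO and 249, 323 and 422 CPM in controls (-0.61 ± 0.24, adjusted p = 0.171, and -0.35 without control tumor 3). Trp53 had 155, 141 and 154 CPM in tumors labelled Cd276KO and 171, 159 and 176 CPM in controls (-0.13 ± 0.11, adjusted p = 0.528). In Mdm4, with 181, 192 and 211 CPM in tumors labelled Cd276KO and 147, 189 and 131 CPM in controls, the groups overlapped (0.36 ± 0.14, adjusted p = 0.168). Cdkn2a was at 0.334, 0.809 and 0.461 CPM in tumors labelled Cd276KO and 1.29, 0.141 and 0 CPM in controls, and was left out by the filter on low counts.

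Host cell markers were summed in the tumors as well. Of the macrophage, neutrophil, fibroblast, striated muscle and keratinocyte lists the neutrophil markers were apart between the groups, and the others overlapped. Summed over the 7 macrophage markers the level was 390 to 627 CPM in tumors labelled Cd276KO and 583 to 953 CPM in controls, and over the 5 neutrophil markers 7.02 to 12.3 CPM and 29.7 to 117 CPM. The 4 fibroblast markers summed to 814 to 1804 CPM in tumors labelled Cd276KO and 273 to 5886 CPM in controls, and the 4 striated muscle markers to 78.7 to 645 CPM and 0.703 to 111 CPM. All markers of these lists had counts in both groups. The 4 keratinocyte markers summed to 6.98 to 7.49 CPM in tumors labelled Cd276KO, and to 199.8 CPM in control tumor 3 and 6.94 and 6.96 CPM in the other controls. Of the other lists, the mesothelial and ovarian surface markers were apart too, at 72.2 to 92.0 CPM with the label and 103 to 170 CPM in controls. So were the few counts of the B cell markers, at 0.288 to 0.445 CPM and 0.516 to 0.850 CPM. Both of these lists held markers without a count. The part of the cells of any list in the tumor values of the p53 list was not tested.

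The interaction between tumors and cultures, as the effect in tumors minus the effect in HM-1 cells, called 2 of 30 members (6.67%), both higher, against 2.84% of all 15623 genes, 1.72% higher and 1.12% lower. Btg2 had 90.8, 65.2 and 79.4 CPM in tumors labelled Cd276KO and 43.7, 52.99 and 52.6 CPM in controls, while in cultures it was 35.5, 37.5 and 34.8 CPM with the label and 47.6, 48.0 and 48.5 CPM in controls. Its difference of effects was 1.07 ± 0.17 (adjusted p = 0.00696). Plk2 had 73.8, 76.8 and 70.7 CPM in tumors labelled Cd276KO and 69.0, 76.0 and 69.9 CPM in controls, with overlapping groups, while in cultures it was lower with the label, and its difference was 0.79 ± 0.14 (adjusted p = 0.0132). Each of the calls was lost once, Btg2 without culture 1 labelled Cd276KO (adjusted p = 0.0508) and Plk2 without culture 3 labelled Cd276KO (0.0503), which left 1 call each time. For Mdm2 the difference was -0.59 ± 0.35 (adjusted p = 0.507), and without both libraries that stand apart -0.01 ± 0.11 (adjusted p = 0.981).

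Control tumors were last compared with control HM-1 cells, a contrast in which host cells enter with the tumor. Of 30 members tested 14 were called, 4 higher and 10 lower in tumors, against 41.8% of all 14609 genes, 25.3% higher and 16.6% lower. Trp53 fell to 171, 159 and 176 CPM in tumors, against 257, 242 and 243 CPM in cells (-0.70 ± 0.13, adjusted p = 0.00520), and Mdm4 rose to 147, 189 and 131 CPM, against 52.4, 73.6 and 70.0 CPM in cells (1.12 ± 0.18, adjusted p = 0.00304). Both groups were fully apart in each gene. Mdm2 (-0.15 ± 0.33, adjusted p = 0.753) and Cdkn1a (0.18 ± 0.22, adjusted p = 0.536) were not called. Without control tumor 3 Mdm2 was called lower (-0.67 ± 0.14, adjusted p = 0.00877) and Cdkn1a was at -0.07.

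Members that were silent or nearly so in HM-1 cultures had counts in tumors. Pmaip1 had 10.6, 5.81 and 4.64 CPM in control tumors, which is at least 161.5-fold higher than in control cells, with 474 counts against 0. Dram1 had 19.5, 8.68 and 5.84 CPM in tumors and 0.340, 0.158 and 0.211 CPM in cells (5.45 ± 0.62, adjusted p = 0.000988). It passed the filter on low counts through the tumors, with 15 counts over the control cells. Cdkn2a had 35 counts over the control tumors and none over the cells, at least 11.92-fold higher, and was not tested. Fas rose to 5.18, 6.89 and 5.53 CPM in tumors, against 2.50, 1.81 and 2.03 CPM in cells (1.33 ± 0.30, adjusted p = 0.0106), a call lost without control culture 2 or 3 (adjusted p = 0.0646 and 0.0613). Host cell markers were also higher in tumors than in cells. Summed macrophage markers were 583 to 953 CPM in control tumors and 79.6 to 94.8 CPM in control cells, where C1qa and C1qb had no count. Fibroblast markers were 273 to 5886 CPM in control tumors and 2.58 to 3.35 CPM in control cells, endothelial markers 57.2 to 219 CPM and 4.14 to 4.39 CPM, and T and NK cell markers 3.86 to 11.7 CPM and 0.0422 to 0.197 CPM. Their part in the levels of Pmaip1, Dram1, Fas and Cdkn2a in tumors was not tested.

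The lower members in control tumors were led by Aen, which fell to 43.1, 56.2 and 23.9 CPM, against 79.9, 95.2 and 94.1 CPM in cells (-1.27 ± 0.28, adjusted p = 0.0102), and Ccng1, which fell to 196, 223 and 160 CPM, against 347, 388 and 417 CPM in cells (-1.14 ± 0.15, adjusted p = 0.00157). Rps27l fell to 104, 90.0 and 99.1 CPM in tumors, against 227, 153 and 154 CPM in cells (-1.02 ± 0.21, adjusted p = 0.00826). Each of these was lower in 3 of 3 tumors. Bax fell to 87.0, 93.1 and 106 CPM in tumors, against 194, 149 and 141 CPM in cells (-0.91 ± 0.19, adjusted p = 0.00859), and Zmat3 to 53.4, 72.6 and 44.2 CPM, against 78.8, 102 and 99.4 CPM in cells (-0.86 ± 0.19, adjusted p = 0.0113). Tnfrsf10b, Ei24, Plk2 and Pidd1 were the other called members, down by 0.52 to 0.83. The call of Pidd1 was lost without any 1 of 5 libraries (adjusted p = 0.0591 to 0.139) and that of Tnfrsf10b without control culture 2 or control tumor 2 (0.0555 and 0.0515). Without both libraries that stand apart 16 members were called, 5 higher and 11 lower, with 59.8% of all genes called.

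Genes around the list were counted for context, from lists chosen with earlier results of these data known. Of 21 other p53 targets tested in HM-1 cells labelled Cd276KO, 8 were lower and 3 higher, with a median of -0.32, against 16.1% lower and 11.6% higher among all genes. The desmosomal target Perp had no count there and 18.5, 15.03 and 14.4 CPM in controls, at least 313.7-fold lower, and Ddit4, an inhibitor of mTORC1, fell to 8.87 ± 1.35 CPM, against 18.9 ± 0.896 CPM in controls. The spindle genes Ckap2 and Psrc1 were higher, by 0.51 and 0.60. Of 16 upstream regulators tested the checkpoint kinase gene Chek1 was called, higher by 0.31 (adjusted p = 0.0498). Of 18 cell cycle genes that p21 represses through the DREAM complex 5 were higher, among them Foxm1 at 265 ± 5.54 CPM, against 138 ± 28.5 CPM in controls, and Cenpf (0.70). Among 10 Bcl2 family genes tested Bid and the anti-apoptotic Bcl2l1 were higher and Bmf and Bcl2l2 lower. As shares of the genes tested, 27.8% of the cell cycle genes and 20% of the Bcl2 family genes were higher, against the 11.6% of all genes.

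In ID8 cells labelled Cd276KO 13 of the 18 cell cycle genes were higher and 2 lower, with a median of 0.26, against 29.4% higher among all genes. Cdk1 rose to 402 ± 6.81 CPM, against 316 ± 4.40 CPM in controls, and Birc5 rose by 0.42, while E2f1 fell by 0.88 and Mki67 by 0.18. Of 20 other p53 targets tested 11 were lower and 4 higher, against 31.3% lower and 29.4% higher among all genes. Thbs1, which encodes the angiogenesis inhibitor thrombospondin, fell to 58.1 ± 1.08 CPM, against 267 ± 6.48 CPM in controls, and Ak1 fell by 1.75. Perp went the other way from HM-1 cells, at 234 ± 6.34 CPM, against 112 ± 1.68 CPM in controls (1.14 ± 0.05, adjusted p = 2.64e-14). Of 17 upstream regulators 58.8% were called, near the 60.7% of all genes. Of these 5 were higher, among them Chek1 (0.61) and the acetyltransferase gene Kat5 (0.55), and 5 lower, among them Crebbp (-0.66) and the deubiquitinase gene Usp7 (-0.58). Of 10 Bcl2 family genes 4 were higher, led by Bcl2l1 (0.62) and Bmf (0.48), and 4 lower, led by Bcl2 (-0.70) and Bid (-0.37).

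In tumors labelled Cd276KO 3 of 22 other p53 targets tested were lower (13.6%, against 3.19% of all genes), among them Perp, with 2 counts in tumors labelled Cd276KO, against 783 in controls, of which control tumor 3 held most, at 35.3 CPM. Bcl2 fell to 45.1 ± 6.77 CPM, against 84.2 ± 6.43 CPM in controls, and Bcl2a1b, whose near-identical copies make its count uncertain, was at 7.56 ± 1.13 CPM, against 17.9 ± 4.13 CPM in controls. None of the 16 upstream regulators or 18 cell cycle genes tested was called by edgeR. At an unadjusted p under 0.05 there were 3 upstream regulators and no cell cycle gene. Between control tumors and control cells, 13 of the 18 cell cycle genes were lower in tumors and the median was -1.07, against 16.6% lower among all genes.

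Across the 3 comparisons of samples labelled Cd276KO with controls, 22 of the 30 members tested in at least 1 of them were called at least once. Among all genes it was 59.3% of the 16188 tested in at least 1. The other 9 of the 31 members were Bbc3, Cdkn2a, Dram1, Eda2r, Ei24, Phlda3, Pidd1, Rrm2b and Xpc. Of these Phlda3, Rrm2b, which encodes a p53-controlled ribonucleotide reductase subunit, and Cdkn2a were called in none of the 7 comparisons run, and Cdkn2a was not tested in any. Phlda3 had group means of 96.7 to 115 CPM over the 6 groups and Rrm2b of 24.5 to 34.1 CPM. The exons of 5 members overlap those of another gene, Bax, Cdkn1a, Ddb2, Ei24 and Rrm2b, and the overlapping gene had counts for the last 4.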

How the data were processed

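RNA was sequenced from 18 mouse samples, 3 in each of 6 groups taken from the sample titles. The deposited table holds raw gene counts, in whole reads and without scaling. The submitters' processing notes list Trim Galore, STAR and HTSeq, without versions, and the build GRCm38 (mm10). No source used here gives the annotation release or whether counting used strand. Genes were named from GENCODE M21, where 53861 identifiers matched with their version and 54723 of 54752 without it, and 20189 genes had no count.

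Levels are counts per 1000000 of the library total (CPM), as mean ± SD with n = 3 or per library, and per length of the exon union for TPM. Differences were tested with edgeR 4.0.16 in R 4.3.3 (robust glmQLFit and glmQLFTest, TMM scaling, filterByExpr) on the libraries compared, and called at a Benjamini-Hochberg adjusted p under 0.05 over all genes tested. A value after ± a log2 fold change is its SE, the fold divided by the square root of F, and 95% intervals are 1.96 SE. Folds against a group at 0 used a floor of 3 counts over the group, and such bounds and count intervals cover counting error only.

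The members and lists were chosen with earlier results of these data known. Values in every library are given for Trp53, Mdm2, Mdm4, Cdkn1a and Cdkn2a, and by rule for up to 5 called members in each direction with a mean of at least 1 CPM in a 2-group comparison and up to 4 in an interaction. Steap3 in ID8, Dram1, and members given because they missed the threshold or differed between libraries were added after their values were seen. The alternatives were DESeq2 1.42.0, relative log and upper-quartile scaling, no filter, a fit over all 18 libraries, limma 3.58.1 voom with quality weights, a replicate block and leaving out each library. Leaving out both libraries that stand apart was chosen after seeing the data. The values of 1 called gene of the other p53 targets, chosen by the rule, are not reported here.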

Additional observations from a re-analysis of the deposited data

Results flagged for a closer look

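The knockout effect differed between the lines in an interaction test (edgeR, adjusted p under 0.05 over all genes) for 16 of 30 members tested, against 40.4% of all genes, given as the log2 effect in ID8 cells minus that in HM-1 cells. It was above 0 for Tnfrsf10b (1.199), Plk2 (1.15), Mdm2 (0.96), Rps27l (0.92), Zmat3 (0.65), Ddb2 (0.64), Polk (0.64), Bbc3 (0.60), Ccng1 (0.59), Trp53 (0.59), Bax (0.44) and Cdkn1a (0.27). It was below 0 for Steap3 (-2.19), Fas (-1.38), Fdxr (-0.80) and Mdm4 (-0.65). That of Steap3 rests on 10 counts with the label and 58 in controls on the ID8 side. In ID8 the Cd276 transcript did not follow the label, so the ID8 side rests on the label alone. Without 1 library or another the calls of Bax (adjusted p = 0.0561 to 0.0958), Bbc3 (0.0540 to 0.0856) and Cdkn1a (0.0548 to 0.111) were lost. In the fit over all 18 libraries those of Bbc3 (0.151) and Cdkn1a (0.274) were lost. That of Cdkn1a was also lost without a filter (0.219) and with a replicate block (0.0670). Line, strain and medium cannot be told apart here.

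Between HM-1 tumors and HM-1 cells the effect differed for 2 of 30 members, against 2.84% of all genes, Btg2 (1.07) and Plk2 (0.79), as the effect in tumors minus that in cells. Host cell markers differ between these samples, and their part was not tested.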

How the results depend on the processing

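Of 998 values of named members under alternatives, 927 kept direction and side of the threshold, 46 lost the call, 18 gained it and 7, none of them called, changed sign. Of 54 called named values 12 lost the call under some alternative and none changed sign. The named values were mostly those with the largest folds and do not stand for all called members. Between the control lines, for example, Btg2, Aen, Ddb2, Xpc, Fdxr, Pidd1 and Rps27l also lost their calls under some alternative. None of them was among the named values of that comparison. The share of all genes called is in brackets. In HM-1 cells 10 members were called (27.7%), 19 under voom (60.7%) and 5 to 19 leaving 1 library out (13.5% to 59.1%). In ID8 cells there were 19 (60.7%), 11 in the fit over all 18 libraries (34.0%) and 17 to 18 leaving 1 out (54.4% to 59.7%). In tumors there were 2 (5.39%), 7 under DESeq2 (16.1%), 4 without a filter (3.2%), 11 in the fit over all 18 libraries (25.7%), 9 under voom (20.7%) and 0 to 6 leaving 1 out (0% to 10.7%). Leaving 1 out, the 21 calls between the control lines (58.3%) became 15 to 25 (49.1% to 75.3%), the 14 between tumors and cells (41.8%) 11 to 15 (28.2% to 46.5%), the 16 in the line interaction (40.4%) 13 to 19 (33.9% to 49.0%), and the 2 in the tumor interaction (2.84%) 1 to 3 (1.4% to 5.68%), or 9 under voom (19.6%). Where an arm had fewer libraries the fit tested fewer samples, and for the other changes the cause was not tested.

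Sign changes came from leaving out 1 library. Between tumors and cells Mdm2 ranged from -0.67 (without control tumor 3) to 0.081 (without control tumor 1) and Cdkn1a from -0.067 (without control tumor 3) to 0.35. In the tumor interaction Mdm4 ranged from -0.043 (without control tumor 3) to 0.23 and Cdkn1a from -0.23 to 0.12 (without control tumor 3), and Cdkn1a was at 0.086 without both libraries that stand apart. Upper-quartile scaling put the median of all genes between tumors and cells at 0.19, against 0.05, and no filter at 0.31.

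Replicate numbers showed no pairing in HM-1 cells or tumors, while in ID8 a pairing is possible. Same-number correlations of deviations were 0.0156, -0.00358 and 0.0214 in HM-1 cells, 0.278, 0.0686 and 0.235 in ID8 and -0.653, 0.00821 and -0.0926 in tumors. In ID8 the correlations between different numbers were lower, at -0.263 to 0.0558. The reported tests used no pairing. With the replicate number as a block 7, 19 and 0 members were called in HM-1 cells, ID8 cells and tumors, 19 between the lines, 13 between tumors and cells, and 15 and 2 in the interactions. Members with few counts, such as Cdkn2a, were left out of the tests by the filter on low counts.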
